A study of Mus musculus with 30 samples.

Results

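Hearts of old mice given nicotinamide riboside (NR) were compared with hearts of young mice, both taken at ZT10. The groups were chosen by their labels: 3 old NR and 3 young hearts, 6 of the 30 samples of the series, of which 18 are hearts and the others cultured HL-1 cells that were not used here. Zeitgeber time (ZT) counts hours from lights on, so that ZT10 lies in the late light phase of a 12:12 cycle and ZT22 in the late dark phase. All mice were female C57BL6, described in the study's methods as a mixed C57Bl6J and C57Bl6N background. Young mice were 2 months old and drank water without NR. Old NR mice were 12 months old and had received NR at 3 g/l in their drinking water for 10 months, from the age of 2 months. Old H2O mice were 12 months old and received no NR, and 3 hearts of that group at ZT10 served as the value at the same age without NR. Each group had 3 hearts with 1 whole-tissue library each, described by the study as individual mice. Age and NR cannot be told apart between old NR and young hearts. The old H2O hearts are therefore given beside them for some of the genes named, but not for all.

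NR is a precursor of NAD+, the cofactor of oxidative metabolism and the substrate of sirtuins, PARPs and CD38. In the heart, NAD+ is made largely by salvage of nicotinamide through Nampt and, from NR, through the NR kinases Nmrk1 and Nmrk2. The circadian clock is a loop in which Bmal1 (Arntl) and Clock drive the Period and Cryptochrome repressors, and both the sirtuins and the NAD+ level itself are tied to that loop.

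The libraries of the 6 hearts held between 4595775 and 6578644 counts over genes, and the lowest old NR total (5619294) lay above the highest young total (5450024), so that depth moved with the group. Ventricular cardiomyocyte markers (8 of 8 detected) summed to between 28921.9 and 33787.8 normalized counts in old NR and between 35168.2 and 41474.1 in young hearts. Of the 4 markers each for thymus, lung and liver, 0 reached the minimum for testing. Old NR replicates 1 and 3 were the most alike pair of all hearts of 1 group. Over 13870 genes the chi-square statistic of their counts was 1.066 per degree of freedom (p = 4.45e-08), against 1.711 to 6.684 in the other 17 pairs, and 2 genes lay over 5 SD of counting noise apart. They differed in Sun1, a nuclear envelope protein, with normalized counts of 818, 2436 and 2258 in old NR replicates 1, 2 and 3 against 752, 765 and 785 in young hearts. Whether replicates 1 and 3 came from 1 heart was not tested. They were kept as 2 hearts because the study describes replicates as individual mice. If they were 1 heart, the old NR group at ZT10 would hold fewer mice and its spread would be understated. Counts of calls with their counts summed as 1 library are therefore also given. Sun1 was not called between the groups (log2 fold change 1.26, SE 0.37, adjusted p = 0.0566), and was chosen here after its values were seen.

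Of 15443 genes tested, 659 were called between old NR and young hearts at ZT10 (4.27%), 365 higher in old NR (2.36%) and 294 lower (1.90%), at an adjusted p under 0.05 from edgeR's quasi-likelihood test, which also gives every adjusted p below. Values in parentheses after a gene are log2 fold changes of old NR over young at ZT10 with their standard error (SE), unless another comparison is named. The median absolute log2 fold change of the called genes was 0.52. Changes of more than 2-fold were found for 104 of the higher and 34 of the lower genes. In 656 of the 659 the 3 old NR and the 3 young hearts did not overlap, which was the case for 25.5% of all genes tested. With old NR replicates 1 and 3 summed as 1 library, 412 genes were called. With all libraries thinned to the lowest total, 495 were called. Without young replicate 3 the number was 287, without old NR replicate 3 to 335, without old NR replicate 1 to 344 and without young replicate 2 to 374.

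**Figure D1:**
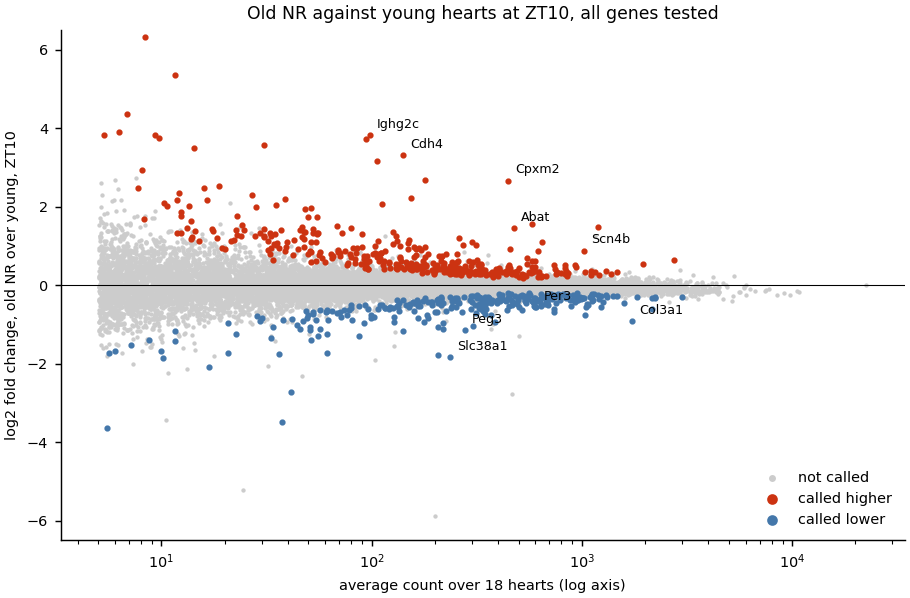
Log2 fold change of old NR over young hearts at ZT10 (vertical axis) against the average count over 18 hearts (horizontal log axis) for the 15443 genes tested, with the 365 genes called higher in red, the 294 called lower in blue and all others in grey. The largest fold changes lie among genes of low count, and the labelled genes include Ighg2c at 3.82, Slc38a1 at -1.84 and, among genes of high count, Col3a1 at -0.91.

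Among called genes averaging at least 50 counts over the 18 hearts, with no overlap between the groups, the 4 largest increases are given first. That average includes the old hearts, so genes with low counts in young hearts, as here, can pass it through the old ones. Ighg2c, the constant region of an IgG heavy chain (ENSMUSG00000076612, chromosome 12, 113285325 to 113288932 on GRCm38, as for all positions of genes), had normalized counts of 14.4, 5.18 and 11.3 in the young hearts and 150.3, 147 and 138 in the old NR hearts. All 3 old NR hearts lay far above the highest young heart, and the log2 fold change was 3.82 (SE 0.23, adjusted p = 7.98e-10). Old H2O hearts had 168, 146 and 128, and old NR did not differ detectably from them (-0.02, adjusted p = 0.977). Ano5, a membrane protein whose loss causes limb-girdle muscular dystrophy (ENSMUSG00000055489, chromosome 7, 51511029 to 51598709), had 5.56, 7.25 and 6.28 in young and 91.8, 80.0 and 86.9 in old NR hearts. Its log2 fold change was 3.73 (SE 0.51, adjusted p = 0.000126), and in old H2O hearts it had 114, 156 and 104. The classical cadherin Cdh4 (ENSMUSG00000000305, chromosome 2, 179442431 to 179899373) had 13.3, 17.6 and 20.1 in young and 179.6, 181 and 150.0 in old NR hearts, with a log2 fold change of 3.32 (SE 0.25, adjusted p = 3.81e-08). A second cadherin, Cdh22, had 12.2, 9.33 and 17.6 in young and 113, 110.2 and 124 in old NR hearts, with a log2 fold change of 3.16 (SE 0.32, adjusted p = 3.74e-06). For the cadherins, as for Ano5, the groups of 3 did not overlap.

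Cds1 and Cpxm2 were also among the 12 largest increases. Cds1, which makes the CDP-diacylglycerol needed for phosphatidylinositol synthesis, had 48.9, 39.4 and 54.0 in young and 229, 211 and 221 in old NR hearts, with a log2 fold change of 2.22 (SE 0.14, adjusted p = 7.98e-10). Cpxm2, a secreted member of the carboxypeptidase family, had 114, 65.3 and 72.9 in young and 568, 489 and 555 in old NR hearts, with a log2 fold change of 2.67 (SE 0.25, adjusted p = 1.4e-06). Both were also high in old H2O hearts, with 180.2 ± 11.8 for Cds1 and 499 ± 135 for Cpxm2 (mean ± SD, n = 3).

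Igha, Edn3, Tmprss13, Kbtbd12 and Shisa6 were further members of this group. Igha, the constant region of the IgA heavy chain, rose from 50.2 ± 15.8 in young to 209.7 ± 8.25 normalized counts in old NR hearts (mean ± SD, n = 3), a log2 fold change of 2.08 (SE 0.41, adjusted p = 0.00438). Endothelin 3 (Edn3), a vasoactive peptide, had 18.9, 11.4 and 7.54 in young and 37.3, 66.1 and 45.9 in old NR hearts, with a log2 fold change of 1.97 (SE 0.44, adjusted p = 0.0112). That call was lost without old NR replicate 2, young replicate 2 or young replicate 3. Kbtbd12, a kelch-repeat protein of muscle, had 236, 242 and 256 in young and 751, 663 and 759 in old NR hearts, with a log2 fold change of 1.56 (SE 0.17, adjusted p = 1.38e-05). Tmprss13, a membrane serine protease, changed by 1.74 (SE 0.27, adjusted p = 0.000442). Shisa6, known as an auxiliary protein of glutamate receptors, changed by 1.51 (SE 0.39, adjusted p = 0.028) and kept its call in 1 of the 6 fits that leave out 1 heart.

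**Figure D2:**
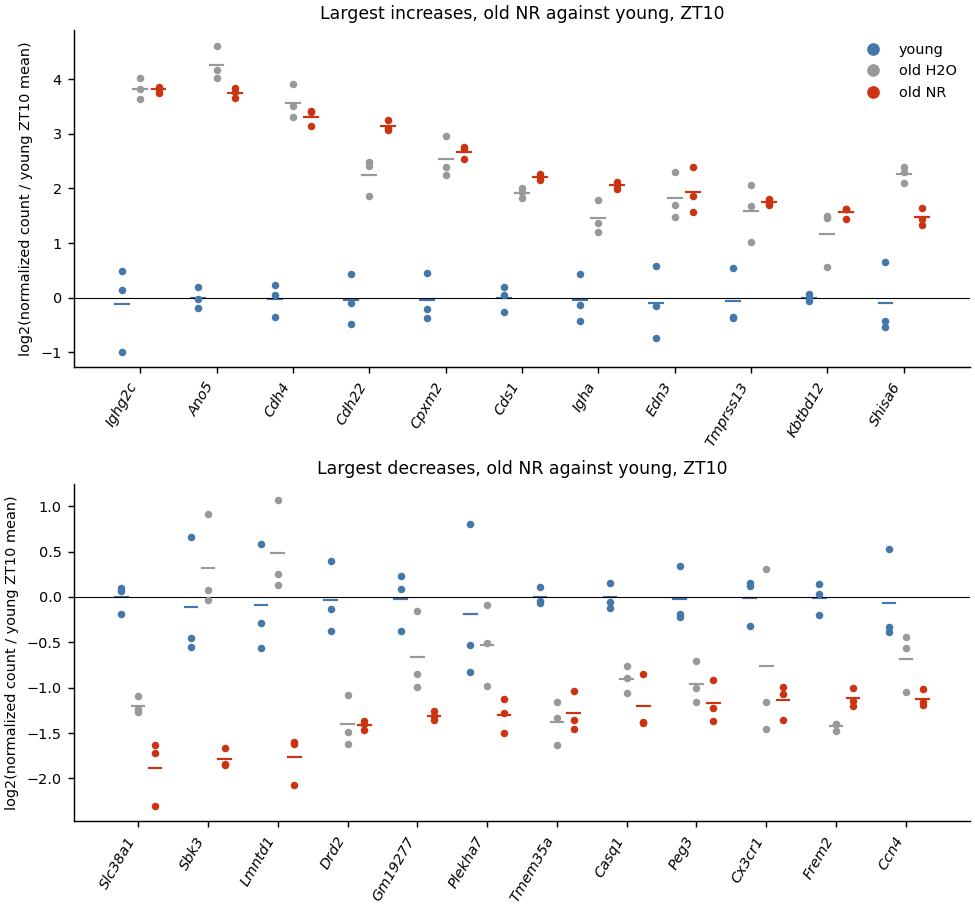
Log2 of the normalized count of each heart over the mean of the 3 young hearts at ZT10, for the named genes with the largest increase (top) and the largest decrease (bottom) in old NR against young hearts; points are hearts and bars the mean log2 value of young (blue), old H2O (grey) and old NR (red). Old NR and young hearts do not overlap for any of these genes, since the choice of genes required it, and old H2O hearts lie nearer to the old NR hearts than to the young ones for Ighg2c, Cdh4 and Frem2 but not for Sbk3 and Lmntd1.

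Among the 12 largest decreases chosen in the same way, the glutamine and alanine transporter Slc38a1 (ENSMUSG00000023169, chromosome 15, 96571418 to 96642913) fell most. It had 351, 419 and 426 normalized counts in young hearts, 187, 169 and 166 in old H2O and 80.7, 129 and 121 in old NR hearts. The log2 fold change of old NR over young was -1.84 (SE 0.19, adjusted p = 3.74e-06). Old NR hearts were below all old H2O hearts, but that difference was not called (-0.64, adjusted p = 0.25). Frem2, a matrix protein that links epithelia to the basement membrane, had 347, 439 and 406 in young and 198, 173 and 179.6 in old NR hearts, with a log2 fold change of -1.12 (SE 0.15, adjusted p = 0.000105). Casq1, the calcium-binding protein of the skeletal muscle sarcoplasmic reticulum, had 201, 232 and 192 in young and 79.7, 116 and 80.2 in old NR hearts, with a log2 fold change of -1.17 (SE 0.23, adjusted p = 0.00438). Skeletal muscle markers (7 of 7 detected) summed to between 51.8 and 70.3 in young and between 32.5 and 55.5 in old NR hearts, and their part in this value was not tested. The dopamine receptor Drd2 had 66.7, 78.8 and 113 in young and 31.3, 32.6 and 33.4 in old NR hearts, with a log2 fold change of -1.39 (SE 0.25, adjusted p = 0.00186). Old H2O hearts held 28.0, 30.7 and 40.7 of Drd2, also below each young heart. Tmem35a, an assembly factor of nicotinic receptors, had 113, 100.5 and 102 in young and 38.3, 51.4 and 41.1 in old NR hearts, with a log2 fold change of -1.26 (SE 0.28, adjusted p = 0.0102). The unnamed gene model Gm19277 had 67.8, 93.3 and 103 in young and 34.3, 36.7 and 35.3 in old NR hearts, with a log2 fold change of -1.30 (SE 0.21, adjusted p = 0.000774). Ccn4, a secreted matricellular protein, changed by -1.11 (SE 0.29, adjusted p = 0.0325), with a high young replicate 1 (123, 65.3 and 67.8 in young hearts), and without that heart by -0.75 (adjusted p = 0.209). Cx3cr1, the fractalkine receptor of monocytes and resident macrophages, had 43.4, 59.1 and 60.3 in young and 27.2, 21.2 and 25.8 in old NR hearts. Its log2 fold change of -1.14 (SE 0.32, adjusted p = 0.0474) was lost in each of the 6 edgeR fits that leave out 1 heart, where the highest adjusted p was 0.166. Of 17 macrophage markers tested, Cx3cr1 was the only one called, against 4.27% of all genes. The summed level of the 17 lay between 3542.2 and 3811.3 in old NR and between 3436.3 and 3872.8 in young hearts.

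Sbk3, Lmntd1 and Plekha7 are described with the atrial markers, which were high or low in much the same hearts. Sbk3, an SH3-binding kinase family member, had 521, 224 and 241 normalized counts in young, 346, 322 and 619.5 in old H2O and 90.8, 104 and 91.7 in old NR hearts, with a log2 fold change of -1.78 (SE 0.39, adjusted p = 0.0108). Lmntd1, a lamin tail domain protein, had 114, 51.8 and 62.8 in young and 18.2, 25.3 and 24.8 in old NR hearts, with a log2 fold change of -1.73 (SE 0.44, adjusted p = 0.0269). Plekha7, a component of adherens junctions, had 249, 80.8 and 99.2 in young and 65.6, 58.8 and 50.6 in old NR hearts, with a log2 fold change of -1.30 (SE 0.33, adjusted p = 0.0256). In each, young replicate 1 was the highest of the 6 hearts. The 8 atrial markers, all of them detected, summed to 6109.9, 2158.7 and 1958.4 normalized counts in the 3 young hearts and to 1794.8, 1676.3 and 1698.4 in the 3 old NR hearts. Old H2O hearts held 3629.4, 3674.2 and 4861.1. Of the 8 markers, 0 were called between old NR and young hearts by edgeR or by DESeq2, where edgeR called 4.27% of all genes. In edgeR, 6 of the 8 had an unadjusted p under 0.05, against 2729 of the 15443 genes tested. The median log2 fold change of the 8 was -1.06 against -0.01 over all genes tested. Against old H2O hearts, 3 of the 8 (Myl7, Myl4 and Sln) were called lower in old NR by edgeR and 3 by DESeq2, where edgeR called 0.168% of all genes lower, and the median over the 8 was -1.64. The atrial myosin light chain Myl7, chosen after its values were seen, had 676, 313 and 305 in young and 212, 173 and 214 in old NR hearts (log2 fold change -1.12, adjusted p = 0.0677), and Nppa, the atrial natriuretic peptide, had 376, 221 and 195 in young and 209.8, 171 and 212 in old NR hearts (-0.43, adjusted p = 0.283). Without young replicate 1, the log2 fold change was -1.28 (adjusted p = 0.0904) for Sbk3, -1.31 (adjusted p = 0.157) for Lmntd1 and -0.62 (adjusted p = 0.248) for Plekha7. The call was also lost without any 1 of the old NR hearts for Lmntd1 and Plekha7, without young replicate 3 for Lmntd1 and without old NR replicate 3 for Sbk3, and with replicates 1 and 3 summed for Lmntd1 and Plekha7. In whole-tissue RNA, fewer cells of a type and less RNA per cell cannot be told apart, and the part of the amount of atrial tissue in these values was not tested.

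**Figure D3:**
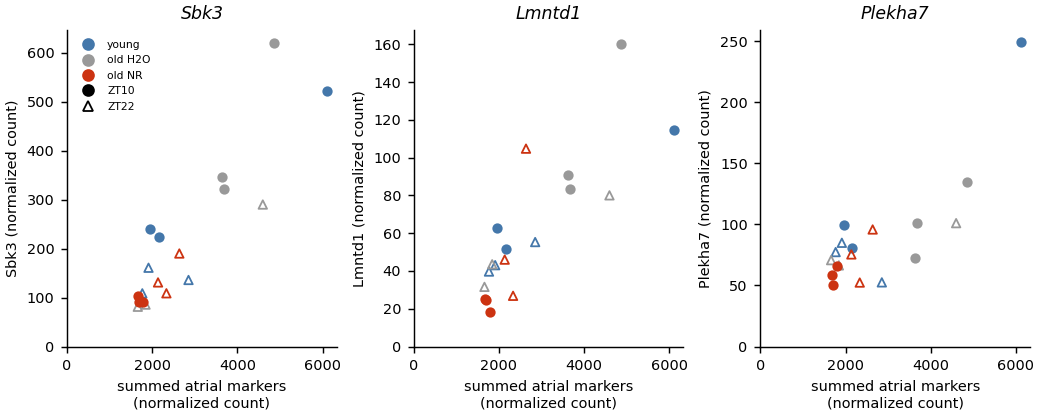
Normalized count of Sbk3, Lmntd1 and Plekha7 (vertical axes) against the summed normalized count of 8 atrial markers (horizontal axes) in each of the 18 hearts, with filled circles for ZT10 and open triangles for ZT22, in young (blue), old H2O (grey) and old NR (red) hearts. The 3 old NR hearts at ZT10 sit toward the low end, between 1676.3 and 1794.8 summed atrial markers, and young replicate 1 at ZT10 at the high end with 6109.9.

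The extracellular matrix had the most called members of the lists examined. Fibrillar collagens, made mostly by fibroblasts, give the cardiac interstitium its tensile strength, and basement membrane collagens and laminins surround each myocyte and capillary. Of 71 matrix genes tested, 27 were called lower in old NR than in young hearts and 2 higher, against 1.90% and 2.36% of all genes. The median log2 fold change of the 71 was -0.30, against -0.01 over all genes tested and -0.03 over the 3523 genes with an average count over 500, a range in which 40 of the 71 fall. The 27 ranged from -0.913 to -0.235, with a median of -0.436. Of the 27, 10 kept their call in each of the 6 fits that leave out 1 heart. With old NR replicates 1 and 3 summed, 15 matrix genes were called lower, and without young replicate 3 the number was 11, without old NR replicate 3 12, without old NR replicate 1 13 and without young replicate 2 14.

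Fibrillar collagens were called lower in 5 of 6 genes. Col3a1 (ENSMUSG00000026043, chromosome 1, 45311538 to 45349706) had 2070.0, 2358 and 2384 normalized counts in young hearts, while 1926, 1672 and 2070.2 were found in old H2O hearts and 1264, 1067 and 1289.5 in old NR hearts. No old NR heart reached the lowest young heart, and the log2 fold change was -0.91 (SE 0.11, adjusted p = 4.41e-05). Col1a1 (ENSMUSG00000001506, chromosome 11, 94936224 to 94953042) had 1306, 1423 and 1314 in young, 1101, 916 and 1129 in old H2O and 806, 774 and 799 in old NR hearts, with a log2 fold change of -0.77 (SE 0.09, adjusted p = 3.86e-05). Old NR was called below old H2O for Col3a1 (-0.65, SE 0.11, adjusted p = 0.0227) and not for Col1a1 (-0.40, SE 0.09, adjusted p = 0.0771). For both collagens the difference between the old groups was not called with replicates 1 and 3 summed (adjusted p = 0.0805 and 0.182).

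Other collagens were lower in 7 of 15 genes, elastic fibre proteins and glycoproteins in 7 of 14 and basement membrane proteins in 4 of 9, while of 6 proteoglycans 0 were called by edgeR or DESeq2 and 1 had an unadjusted p under 0.05. Mfap4, a microfibril-associated glycoprotein, had 163, 169 and 158 in young and 92.8, 118 and 97.4 in old NR hearts, with a log2 fold change of -0.66 (SE 0.16, adjusted p = 0.0182). The laminin chain Lama5 had 1961, 2412 and 3139 in young and 1416, 1853 and 1626 in old NR hearts, with a log2 fold change of -0.61 (SE 0.15, adjusted p = 0.0219). Adamts2, the protease that trims the N-terminal propeptide of procollagen, had 367, 465 and 449.7 in young and 260.3, 306 and 268 in old NR hearts, with a log2 fold change of -0.61 (SE 0.12, adjusted p = 0.00422). The calls for Mfap4 and Lama5 were lost with replicates 1 and 3 summed (adjusted p = 0.0521 and 0.0852), and that for Adamts2 was kept (0.0175). The 2 genes that rose were Mmp3, the protease stromelysin 1 (23.4, 13.5 and 8.79 in young and 26.2, 53.9 and 36.3 in old NR hearts, log2 fold change 1.35, SE 0.35, adjusted p = 0.028), and P4ha1, a prolyl hydroxylase that stabilizes collagen (638, 596 and 540.2 in young and 724, 727 and 791 in old NR hearts, 0.34, SE 0.07, adjusted p = 0.0122). The call of Mmp3 was lost without old NR replicate 2 or 3, without young replicate 2 or 3, and after thinning. That of P4ha1 was lost without old NR replicate 3 or young replicate 3.

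The level in old H2O hearts lay between the means of the other 2 groups for all 27 of these matrix genes, which were chosen for the difference between those groups. Their median log2 difference was -0.211 for old H2O over young and -0.218 for old NR over old H2O, comparisons that share hearts with each other. Over the whole list of 71 these medians were -0.09 and -0.184. Of the whole list, 5 genes were called lower and 2 higher in old H2O than in young hearts, where 5.87% of all genes were called, 2.92% lower and 2.95% higher, and Col3a1 was the one called, lower, in old NR against old H2O hearts. Fibroblast markers (9 of 9 detected) summed to between 7452.7 and 8597.9 normalized counts in old NR hearts and between 9196.5 and 9912.5 in young hearts. Of the 9, 1 was called lower, against 1.90% of all genes, and the median was -0.146. The called one was Pi16, a marker of adventitial fibroblasts (-0.40, SE 0.08, adjusted p = 0.00492). Of 10 pericyte and smooth muscle markers, 1 was called lower, against the same 1.90%, the PDGF receptor Pdgfrb (-0.31, SE 0.07, adjusted p = 0.00806). Their part in the matrix values was not tested.

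**Figure D4:**
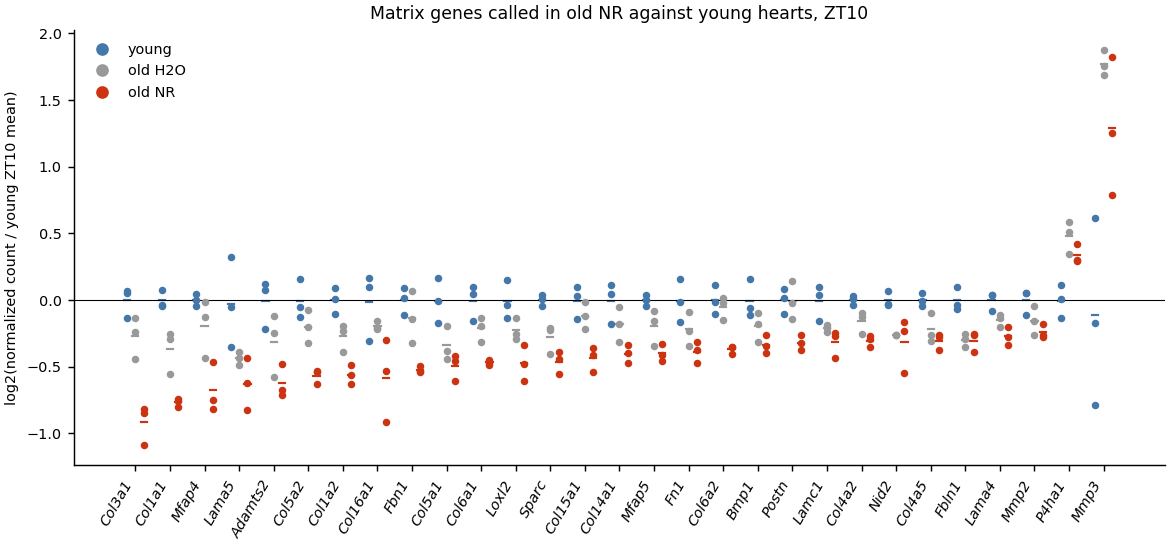
Log2 of the normalized count of each heart over the mean of the 3 young hearts at ZT10, for the 29 matrix genes called in old NR against young hearts, ordered by log2 fold change; points are hearts and bars the mean log2 value of young (blue), old H2O (grey) and old NR (red). Grey bars lie between blue and red ones in the 27 genes that were lower, and P4ha1 and Mmp3 at the right were higher.

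In the hearts of ZT22, which share no heart with those of ZT10, 36 of the 71 matrix genes were called, all of these lower in old NR than in young, where 6.58% of all genes were called lower. Of the 27 matrix genes lower at ZT10, 20 were also lower at ZT22. The change differed between the times for 2 of the 27, Lama5 among them. Over the 71 it differed for 7 genes more positive and 2 more negative at ZT10, against 3.21% and 2.77% of all genes. Of 13 collagen maturation genes, 6 were more positive at ZT10. Of these 13, 9 were called lower at ZT22, and 2 lower and 1 higher at ZT10. Lama5 was lower at ZT10 and not called at ZT22 (0.33, adjusted p = 0.158), and the difference between the times was -0.94 (SE 0.21, adjusted p = 0.0104). P4ha1, which was higher at ZT10 and so is not among the 27, was lower at ZT22 (-0.58, adjusted p = 1.67e-05).

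Of 21 clock genes tested, 2 were called in old NR against young hearts at ZT10, and both of them were lower, against 1.90% of all genes called lower. They were Period genes, which encode repressors of Clock and Bmal1 and are near their daily peak in this phase. Per1 (ENSMUSG00000020893, chromosome 11, 69095217 to 69109960) had 1319.6, 1351 and 1549 normalized counts in young, 1003, 967 and 1093 in old H2O and 788, 964 and 856 in old NR hearts. The old NR hearts were all below the young ones, and the log2 fold change was -0.69 (SE 0.12, adjusted p = 0.00197). Per3 (ENSMUSG00000028957, chromosome 4, 151003652 to 151044665) had 1247, 1242 and 1367 in young, 864, 883 and 833 in old H2O and 909, 883 and 835 in old NR hearts, with a log2 fold change of -0.55 (SE 0.07, adjusted p = 9.74e-05). Both calls were kept in each of the 6 fits that leave out 1 heart and with old NR replicates 1 and 3 summed. Old NR and old H2O hearts overlapped for Per3, and neither gene was called between them (Per1 -0.23, adjusted p = 0.558, Per3 0.03, adjusted p = 0.934).

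The promoter windows of both genes, from 250 bases before to 50 after the start in RefSeq (GRCm38.p6), are shown because they are the 2 clock genes that changed. E-boxes (CACGTG, the site of Clock and Bmal1) are in capitals, and the first of 2 windows listed for Per1 is the one with a match. An E-box is held by 7.15% of 32851 promoter windows, and the REV-ERB and ROR element (TAGGTCA or TGGGTCA, both strands) by 6.45%. The windows of Per1 and Per3 held 0 matches to the latter, and that of Per3 held 0 E-boxes.
Per1 (chr11:69098699-69098998, plus strand): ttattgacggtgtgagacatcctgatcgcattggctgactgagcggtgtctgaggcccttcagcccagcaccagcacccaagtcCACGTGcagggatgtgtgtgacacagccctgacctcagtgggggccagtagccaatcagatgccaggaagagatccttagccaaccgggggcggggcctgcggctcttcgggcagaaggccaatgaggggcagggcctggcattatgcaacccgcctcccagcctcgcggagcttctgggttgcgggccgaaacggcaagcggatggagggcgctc
Per3 (chr4:151044616-151044915, minus strand): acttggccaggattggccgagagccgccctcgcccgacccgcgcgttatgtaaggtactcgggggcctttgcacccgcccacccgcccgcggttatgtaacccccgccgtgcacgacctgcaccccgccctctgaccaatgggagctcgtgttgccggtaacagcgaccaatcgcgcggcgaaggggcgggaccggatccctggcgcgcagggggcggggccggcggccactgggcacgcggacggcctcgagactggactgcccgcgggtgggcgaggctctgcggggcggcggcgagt

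Arntl (Bmal1), which is near its daily minimum at ZT10, had 8.89, 14.5 and 10.1 normalized counts in young, 38.5, 36.5 and 53.5 in old H2O and 13.1, 26.1 and 21 in old NR hearts. The old H2O hearts were above all others, old NR overlapped with young, and the log2 fold change of old NR over young was 0.85 (SE 0.33, adjusted p = 0.162). Old H2O over young was 1.90 (SE 0.29, adjusted p = 0.000402), and old NR over old H2O -1.05 (SE 0.24, adjusted p = 0.0689). For Clock itself the values were 441, 474 and 475 in young, 691, 646 and 771 in old H2O and 573, 557 and 570.3 in old NR hearts. Clock was called in old H2O over young (0.60, adjusted p = 0.00139) and not in old NR over young (0.29, adjusted p = 0.135), and the difference between the old groups was not called (-0.31, adjusted p = 0.258). Nfil3, a repressor of clock output, had 74.5, 114 and 91.7 in young and 110.0, 179 and 139.5 in old NR hearts (0.62, adjusted p = 0.0693). Per2 (-0.24, adjusted p = 0.33), the output factor Dbp (-0.26, adjusted p = 0.149) and the REV-ERB gene Nr1d2 (-0.15, adjusted p = 0.465) were not called.

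At ZT22 the same contrast called 8 clock genes higher and 6 lower in old NR than in young hearts, where 7.60% of all genes were called higher and 6.58% lower. Its difference from ZT10 was called for 10 of the 21, 3 more positive and 7 more negative at ZT10, against 3.21% and 2.77% of all genes. Per3 changed in opposite directions, -0.55 (adjusted p = 9.74e-05) at ZT10 and 1.05 (adjusted p = 6.64e-07) at ZT22, a difference of -1.60 (SE 0.12, adjusted p = 1.25e-07). Its level at ZT22 was 144, 122 and 159 in young and 251, 335 and 281 in old NR hearts, while at ZT10 it was 1247, 1242 and 1367 in young and 909, 883 and 835 in old NR. Per1 did likewise (0.44, adjusted p = 0.0427 at ZT22, difference -1.13, SE 0.19, adjusted p = 0.00103). With 2 times a day, a lower peak and a shifted peak cannot be told apart.

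Chaperones of the endoplasmic reticulum (ER) fold secreted and membrane proteins and are induced by the unfolded protein response. Of 37 genes of this group, 4 were called higher and 1 lower in old NR than in young hearts, against 2.36% and 1.90% of all genes, with a median log2 fold change of 0.06. With replicates 1 and 3 summed, 4 were called higher. Sdf2l1, a component of the ER chaperone network (ENSMUSG00000022769, chromosome 16, 17130138 to 17132383), had 54.5, 39.4 and 35.2 normalized counts in young and 76.7, 92.2 and 81.2 in old NR hearts. The groups did not overlap, and the log2 fold change was 0.95 (SE 0.19, adjusted p = 0.00538). The secreted ER protein Manf had 235, 186 and 232 in young and 308, 287 and 316 in old NR hearts, with a log2 fold change of 0.48 (SE 0.10, adjusted p = 0.00544). Hyou1, an ER chaperone of the HSP70 family, had 570.3, 479.8 and 587 in young and 738, 740.2 and 706 in old NR hearts, with a log2 fold change of 0.42 (SE 0.07, adjusted p = 0.00191). Creld2, a disulphide isomerase of the ER, had 144, 113 and 147 in young and 179.6, 190.2 and 182 in old NR hearts, with a log2 fold change of 0.45 (SE 0.11, adjusted p = 0.0221), and lost its call without young replicate 2 or without any of the old NR hearts. The gene that fell was Chac1, a glutathione-degrading enzyme induced by ATF4, with 78.9, 117 and 103 in young and 42.4, 53 and 47.8 in old NR hearts, with a log2 fold change of -1.05 (SE 0.25, adjusted p = 0.0166). In old H2O hearts the 4 higher genes had means of 78.2 ± 15.5 for Sdf2l1, 278 ± 11.9 for Manf, 710.0 ± 19 for Hyou1 and 170.1 ± 17.5 for Creld2 (± SD, n = 3). Of the 37, 0 were called between old NR and old H2O hearts by edgeR or DESeq2, and 2 had an unadjusted p under 0.05 in edgeR. As edgeR called only 0.285% of all genes between these groups, a count of 0 says little about this list.

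Sdf2l1, Manf, Hyou1 and Creld2 were the 4 genes of the list called higher at ZT10 and lower at ZT22 in old NR against young hearts. RefSeq windows are given for Sdf2l1 and Creld2, and none for Manf and Hyou1. They were searched on both strands for the ER stress response element (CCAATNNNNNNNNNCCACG, chosen after the values were seen), which 0.119% of all windows hold. That of Creld2 holds 1 match, on the opposite strand and with its fixed bases in capitals, and that of Sdf2l1 holds 0. Of 2 further windows searched, that of Hspa5, which was not called at ZT10, holds 1 match and that of Pdia4 holds 0.
Sdf2l1 (chr16:17132334-17132633, minus strand): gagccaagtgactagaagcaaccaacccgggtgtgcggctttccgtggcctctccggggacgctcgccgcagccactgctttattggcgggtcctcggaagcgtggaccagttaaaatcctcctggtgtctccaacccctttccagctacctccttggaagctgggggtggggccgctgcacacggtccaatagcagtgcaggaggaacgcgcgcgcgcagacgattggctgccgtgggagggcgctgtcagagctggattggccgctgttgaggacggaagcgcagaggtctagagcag
Creld2 (chr15:88819396-88819695, plus strand): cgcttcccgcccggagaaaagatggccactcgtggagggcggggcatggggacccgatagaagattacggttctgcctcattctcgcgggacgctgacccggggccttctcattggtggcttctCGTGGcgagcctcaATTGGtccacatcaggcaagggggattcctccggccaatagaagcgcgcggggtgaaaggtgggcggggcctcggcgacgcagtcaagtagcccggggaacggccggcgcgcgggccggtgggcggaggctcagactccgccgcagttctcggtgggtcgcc

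At ZT22, 16 of the 37 were called lower in old NR than in young hearts and 1 higher, against 6.58% and 7.60% of all genes. The difference between the times was called for 16 genes, all of them more positive at ZT10, against 3.21% of all genes, and for 13 with replicates 1 and 3 summed. Sdf2l1 had 203, 201 and 166 in young and 45.7, 42.7 and 61.1 in old NR hearts at ZT22 (-1.92, adjusted p = 1.5e-07), a difference of 2.87 (SE 0.25, adjusted p = 6.12e-07) between the times. In young hearts the level was thus higher at ZT22 than at ZT10, and in old NR hearts it was lower. For Hyou1 the difference was 1.40 (SE 0.10, adjusted p = 9.64e-08) and for Manf 1.62 (SE 0.13, adjusted p = 2.3e-07). The ER HSP70 Hspa5 (BiP) and the disulphide isomerase Pdia4, chosen after their values were seen, were not called at ZT10 (0.16, adjusted p = 0.56 and 0.12, adjusted p = 0.422) and were lower in old NR hearts at ZT22 (-0.46, adjusted p = 0.0179 and -0.80, adjusted p = 2.18e-07).

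**Figure D5:**
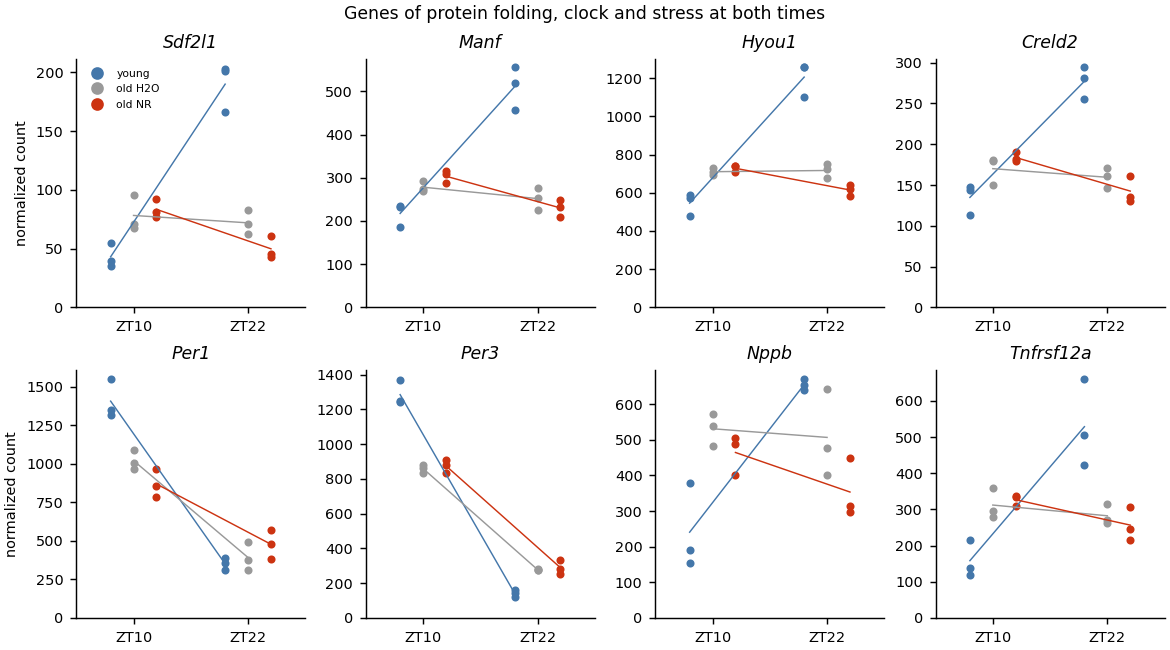
Normalized counts of 8 genes in each heart at ZT10 and ZT22, with points for hearts and lines joining the group means of young (blue), old H2O (grey) and old NR (red) hearts. For Sdf2l1, Manf, Hyou1, Creld2, Nppb and Tnfrsf12a young hearts are low at ZT10 and high at ZT22 while both old groups are nearly level or fall, and for Per1 and Per3 the young hearts span the widest range.

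Cytosolic heat shock genes, immediate early genes and cardiac stress genes had fewer calls at ZT10 than at ZT22, as did all genes tested (4.27% and 14.2%). Of 26 heat shock and cold-inducible genes, the chaperones Hsph1 (736, 504 and 541 in young and 831, 801 and 905 in old NR hearts, log2 fold change 0.51, SE 0.10, adjusted p = 0.00566) and Hspa4l (0.34, SE 0.08, adjusted p = 0.0242) were higher. The cold-inducible RNA-binding proteins Rbm3 (364, 376 and 362 in young and 292, 296 and 266 in old NR hearts, -0.37, SE 0.08, adjusted p = 0.0123) and Cirbp (-0.33, SE 0.09, adjusted p = 0.044) were lower. The call of Cirbp was lost in each of the 6 fits that leave out 1 heart. At ZT22, 1 gene of this list was higher and 11 lower, against 7.60% and 6.58% of all genes. The difference between the times was called for 9 genes more positive and 1 more negative at ZT10, against 3.21% and 2.77% of all genes. Of 26 immediate early genes, Arc (15.6, 30.1 and 16.3 in young and 55.5, 55.5 and 44.9 in old NR hearts, 1.31, SE 0.29, adjusted p = 0.0125) and the small Maf factor Maff (72.3, 88.1 and 85.4 in young and 134, 171 and 127 in old NR hearts, 0.82, SE 0.17, adjusted p = 0.00708) were higher at ZT10, whereas at ZT22 17 were called and all of these were lower, against 6.58% of all genes called lower. The difference between the times was called for 12 of the 26, all of these more positive at ZT10, against 3.21% of all genes.

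Among 17 cardiac stress genes, 2 were called and both were higher, against 2.36% of all genes called higher. Nppb, the brain natriuretic peptide released by stretched myocytes, had 379, 189.7 and 153 normalized counts in young, 572, 483 and 538 in old H2O and 504, 402 and 487 in old NR hearts. Young replicate 1 came close to the lowest old NR heart, and the log2 fold change was 0.94 (SE 0.22, adjusted p = 0.016). Its call was lost without replicate 2 or 3 of the young hearts and without replicate 1 or 3 of the old NR hearts. Tnfrsf12a, the receptor of TWEAK, had 217, 139 and 119 in young and 336, 310.1 and 334 in old NR hearts, with a log2 fold change of 1.04 (SE 0.18, adjusted p = 0.00158) that was kept in each of the 6 fits. Between the old groups the log2 difference was -0.20 (SE 0.20, adjusted p = 0.763) for Nppb and 0.07 (SE 0.16, adjusted p = 0.917) for Tnfrsf12a. At ZT22 both were lower in old NR than in young hearts (-0.87, adjusted p = 0.00508 and -1.05, adjusted p = 0.000144), and the difference between the times was 1.81 (SE 0.30, adjusted p = 0.000886) for Nppb and 2.08 (SE 0.24, adjusted p = 1.8e-05) for Tnfrsf12a. In old H2O against young hearts at ZT10, 7 of the 17 genes were called and all of these were higher in old H2O, against 2.95% of all genes called higher. When the old groups at this time were compared directly, edgeR and DESeq2 each called 0 of the 17. In edgeR, 5 of them had an unadjusted p under 0.05. Their median log2 difference, old NR over old H2O, was -0.20, against -0.003 over all genes tested. With 0.285% of all genes called by edgeR in that comparison, 0 calls among 17 genes decide little.

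Of 35 genes of NAD+ metabolism, 1 was higher and 1 lower in old NR than in young hearts, against 2.36% and 1.90% of all genes. Sirt5, the mitochondrial desuccinylase, had 346, 365 and 371 in young and 468, 442 and 455 in old NR hearts, with a log2 fold change of 0.34 (SE 0.07, adjusted p = 0.00445) that was kept in each of the 6 fits. Cd38, the ectoenzyme that degrades NAD+ and NMN, had 256, 226 and 260.0 in young and 205, 186 and 172 in old NR hearts, with a log2 fold change of -0.40 (SE 0.09, adjusted p = 0.0172), and in old H2O hearts 176, 187 and 202. The call of Cd38 was lost without old NR replicate 2 or 3, without young replicate 1 or 3, and with DESeq2 on the groups compared. The NR kinase Nmrk2, which phosphorylates NR in muscle, had 186, 195 and 187 in young, 109.7, 112 and 112 in old H2O and 163, 214 and 173 in old NR hearts. Old H2O hearts were below all others, while old NR and young hearts overlapped (-0.04, SE 0.15, adjusted p = 0.929). The difference between old NR and old H2O hearts narrowly missed the threshold (0.73, SE 0.16, adjusted p = 0.0515). Nampt, the rate-limiting enzyme of salvage, changed by -0.22 (SE 0.10, adjusted p = 0.242) and Sirt1 by 0.19 (SE 0.10, adjusted p = 0.31), neither of them called.

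In the channel list (36 genes), 1 gene was called higher and 1 lower, against 2.36% and 1.90% of all genes. Scn4b, a beta subunit of cardiac sodium channels (ENSMUSG00000046480, chromosome 9, 45138395 to 45154152), had 819, 723 and 612 normalized counts in young, 1131, 1180.3 and 1049.6 in old H2O and 1474, 1101 and 1409.9 in old NR hearts, with a log2 fold change of 0.88 (SE 0.15, adjusted p = 0.00121). The pacemaker channel Hcn4 had 229, 244 and 234 in young, 145, 116 and 127 in old H2O and 124, 164 and 146 in old NR hearts, with a log2 fold change of -0.69 (SE 0.12, adjusted p = 0.00124). At ZT22 Hcn4 was not called (0.32, adjusted p = 0.0591), and the difference between the times was -1.01 (SE 0.16, adjusted p = 0.000702). In the imprinted growth network, whose members are expressed from 1 parental allele and decline after birth, 3 of 17 genes were called and these were lower, against 1.90% of all genes called lower, and the same number with replicates 1 and 3 summed. They were Peg3 (505, 342 and 352 in young and 155, 211 and 171 in old NR hearts, log2 fold change -1.15, SE 0.17, adjusted p = 0.000234) and the neighbouring noncoding RNAs Meg3 (258, 292 and 285 in young and 127, 202 and 134 in old NR hearts, -0.84, SE 0.15, adjusted p = 0.00233) and Rian (150.1, 122 and 148 in young and 81.7, 86.5 and 77.4 in old NR hearts, -0.77, SE 0.12, adjusted p = 0.000337). All 3 were also below young in each old H2O heart, with 179, 199 and 245 for Peg3, 156, 169.8 and 173 for Meg3 and 93.4, 90.2 and 90.7 for Rian.

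For the lists of immune genes, 2.36% of all genes called higher and 1.90% called lower serve as the shares to compare. Of 15 complement genes, 3 were called and all of these were higher, as were 3 with replicates 1 and 3 summed. C3, the central component of the cascade, had 1163, 1314 and 1427 in young, 2649, 2687 and 2601 in old H2O and 1932, 1750.5 and 1963 in old NR hearts. Old NR hearts thus lay between the other groups without overlap, above young (0.53, SE 0.10, adjusted p = 0.00254) and below old H2O (-0.49, SE 0.10, adjusted p = 0.0305). C4b, chosen after its values were seen, had 130.1, 154 and 142 in young, 369, 369 and 303 in old H2O and 163, 246 and 187 in old NR hearts, with differences of 0.49 (SE 0.15, adjusted p = 0.0785) against young and -0.80 (SE 0.14, adjusted p = 0.0227) against old H2O hearts. The C1 proteases C1ra (0.40, SE 0.10, adjusted p = 0.0283) and C1s1 (0.37, SE 0.08, adjusted p = 0.0146) were the others, and the call of C1ra was lost in each of the 6 fits that leave out 1 heart. With replicates 1 and 3 summed, old NR was not called below old H2O for C3 (adjusted p = 0.0901) or C4b (0.0805). Of 8 B and plasma cell markers tested, the immunoglobulin genes Igha (above) and Igkc (36.7, 39.4 and 65.3 in young and 142, 116 and 127 in old NR hearts, 1.46, SE 0.36, adjusted p = 0.0207) were higher. The call of Igkc was lost without old NR replicate 1 or 3 or young replicate 1 or 2. Of the 8, 5 had a negative log2 fold change, the lowest -1.524, and were not called. In 3 of the 8 all old NR hearts lay below all young ones, against 2004 of the 15443 genes tested. In 3 of the 8 all old NR hearts lay above all young ones, against 1928 of the 15443. The median of the 8 was -0.503, against -0.006 over all genes tested. The 9 markers on that list summed to between 464.2 and 502.4 in old NR and between 208.3 and 348 in young hearts. Of 41 interferon response genes, Ifit1 (0.56, SE 0.14, adjusted p = 0.023) and Ifi44 (0.62, SE 0.17, adjusted p = 0.0362) were the called members and were higher. Both calls were lost without old NR replicate 2 or young replicate 1 or 2, and that of Ifi44 also without young replicate 3.

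A few members were called in 3 further lists, against 4.27% of all genes. Among p53 targets and senescence genes (22 tested), the pro-apoptotic Bbc3 (Puma) was higher (0.92, SE 0.23, adjusted p = 0.026) and the death receptor Tnfrsf10b lower (-0.81, SE 0.23, adjusted p = 0.048). Of 32 genes of sterol and fatty acid synthesis, the desaturase Scd2 was among those called lower (-0.52, SE 0.13, adjusted p = 0.0206). Of 16 genes of heme metabolism, Alas2, the erythroid enzyme of heme synthesis, was higher (0.77, SE 0.20, adjusted p = 0.0267), beside red cell markers that summed to between 723.9 and 811.9 in old NR and between 527.5 and 800.4 in young hearts. The calls of these 4 genes were each lost in 3 or more of the 6 fits that leave out 1 heart.

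By edgeR, 0 genes were called in the lists for sarcomere (26 tested), fatty acid use (51), glucose use (35), the nuclear-encoded respiratory chain (78), cell cycle (44), antigen presentation (21), antioxidant genes (33), autophagy and atrophy (21), proteasome (31), adrenergic signalling (20) or IGF and insulin signalling (29). As edgeR called 4.27% of all genes, 0 calls say little about the shorter of these lists. At an unadjusted p under 0.05 in edgeR each list held between 0 and 8 genes, against 2729 of the 15443 genes tested. The counts were 5 in the respiratory chain and 8 each in fatty acid use and in IGF and insulin signalling. DESeq2 on all hearts called 1 gene, in the adrenergic list. The 78 respiratory chain genes were each estimated lower in old NR hearts, between -0.37 and -0.02, with a median of -0.187, against -0.006 over all genes tested. Their members with the highest average count were Atp5a1, a subunit of ATP synthase (-0.23, SE 0.17, adjusted p = 0.532), and Sdha, the catalytic subunit of complex II (-0.19, SE 0.15, adjusted p = 0.545). In fatty acid use these were the lipoprotein lipase Lpl (-0.24, SE 0.17, adjusted p = 0.49) and Hadha of the trifunctional protein of beta-oxidation (-0.18, SE 0.14, adjusted p = 0.558). Ribosomal protein genes (77 tested) had a median of -0.174 and the 8 ventricular cardiomyocyte markers one of -0.245, with 0 called in either by edgeR or DESeq2 and 7 and 1 genes with an unadjusted p under 0.05. Over the 309 genes with an average count over 2000 the median was -0.091.

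Old NR and old H2O hearts have the same age and differ in NR. Between them, 44 genes were called at ZT10 (0.285%), 18 higher (0.117%) and 26 lower (0.168%) in old NR. DESeq2 on all hearts called 59. With old NR replicates 1 and 3 summed, edgeR called 0, with 1386 genes at an unadjusted p under 0.05, and DESeq2 was not run on the summed counts. EdgeR also called 0 without old NR replicate 1, without old NR replicate 3 or without old H2O replicate 3, with 1363, 1438 and 1162 genes at an unadjusted p under 0.05. It called 1 without old H2O replicate 1, 4 without old NR replicate 2 and 22 without old H2O replicate 2. Among those lower in old NR were Lmntd1 (-2.27, SE 0.42, adjusted p = 0.0227) and Sbk3 (-2.15, SE 0.38, adjusted p = 0.0227), which are described above with the atrial markers, and Col3a1 and Abat. Abat, the enzyme that breaks down GABA, had 198, 148 and 147 normalized counts in young, 682, 727 and 664 in old H2O and 471, 442 and 441 in old NR hearts. It was higher in old NR than in young (1.45, SE 0.14, adjusted p = 1.26e-06) and lower than in old H2O hearts (-0.62, SE 0.11, adjusted p = 0.0227). Higher in old NR than in both other groups were Srrm4, a neural splicing factor (234, 237 and 183 in young, 249.8, 213 and 195 in old H2O and 321, 334 and 307 in old NR hearts), and Uspl1, a SUMO isopeptidase (384, 421 and 368 in young, 355, 396 and 342 in old H2O and 490.3, 496 and 485 in old NR hearts). For Srrm4 the log2 fold change was 0.55 (SE 0.12, adjusted p = 0.00803) against young and 0.55 (SE 0.12, adjusted p = 0.0436) against old H2O hearts, and for Uspl1 0.33 (SE 0.08, adjusted p = 0.0179) and 0.43 (SE 0.08, adjusted p = 0.0227). With replicates 1 and 3 summed, none of these 6 differences from old H2O hearts was called by edgeR (the lowest adjusted p was 0.0805).

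At ZT22, 2189 genes (14.2%) were called between old NR and young hearts, against 659 at ZT10. Of the 365 genes higher at ZT10, 162 were also higher at ZT22 (44.4% of them and 7.40% of the ZT22 calls) and 32 lower. Of the 294 lower at ZT10, 62 were also lower at ZT22 (21.1% of them and 2.83% of the ZT22 calls) and 25 higher. The change itself differed between the times for 924 genes (5.98%), and for 711 with old NR replicates 1 and 3 summed. Of the 659 called at ZT10 it differed for 168, but these were chosen by a ZT10 change that is itself part of that difference. The largest differences toward a more negative change at ZT10 were those of Gm19277 (-2.21, SE 0.30, adjusted p = 0.00015), Lmntd1 (-2.17, SE 0.60, adjusted p = 0.0327), the phospholipase Pla2g4e (-2.10, SE 0.23, adjusted p = 1.5e-05) and the heparan sulfate sulfotransferase Hs3st5 (-1.99, SE 0.33, adjusted p = 0.000863). Pla2g4e had 239, 211 and 242 in young and 168, 163 and 154 in old NR hearts at ZT10, and 95.1, 46.0 and 83.6 in young and 188, 269 and 196 in old NR hearts at ZT22. The largest toward a more positive change were those of the stress factor Atf3 (2.90, SE 0.69, adjusted p = 0.0145), Sdf2l1 (above), the Nogo receptor Rtn4r (2.41, SE 0.34, adjusted p = 0.000173) and Angptl4, an inhibitor of lipoprotein lipase (2.17, SE 0.65, adjusted p = 0.05). For Atf3 the difference came with a wide spread in the young hearts at ZT22 (76.0, 587 and 233), while at ZT10 old NR hearts (59.5, 135 and 85.0) overlapped with young ones (61.1, 69.4 and 93.0). Ighg2c, Ano5, Cdh4, Cds1 and Cpxm2 were higher in old NR hearts at both times, with log2 fold changes at ZT22 of 3.37, 3.99, 3.23, 1.99 and 2.17, and the difference between the times was called for none of the 5 (the lowest adjusted p was 0.49).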

How the data were processed

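Per the labels and the study's methods, hearts were sequenced as stranded mRNA from a single end. The authors trimmed the reads (Trimmomatic 0.39), aligned them to mm10 (STAR 2.7.10a), removed duplicates (Picard 3.0.0) as well as reads that were ribosomal, mitochondrial or mapped to several places, and deposited exon counts per gene (featureCounts 2.0.4). A second deposited table holds those counts divided by size factors and rounded, a score used only for gene symbols and as a check; HL-1 files were not used here. The table labelled as normalized holds the counts. Counts of all 18 hearts were fitted with edgeR 4.0.16 (limma 3.58.1, R 4.3.3): TMM normalization, 1 mean per group, the two-sided quasi-likelihood F-test, genes with an average count over 5 (15443 of 20764), Benjamini-Hochberg adjustment over all of them, threshold 0.05. Log2 fold changes are old NR over young unless another pair is named, normalized counts are TMM-normalized, and means are given with SD. A difference between the times is the change at ZT10 minus that at ZT22. A two-sided exact permutation test of 3 against 3 hearts cannot go below 0.1, so p-values rest on the fitted spread. The study describes each replicate as 1 mouse, and whether old NR replicates 1 and 3 at ZT10 were separate hearts was not tested. The comparisons among old NR, old H2O and young hearts at ZT10 share hearts.

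Library totals lay between 3922137 and 7562215 counts. Coordinates are GRCm38 (GENCODE M21, 20737 genes matched by identifier), promoters RefSeq (GRCm38.p6). Immunoglobulin constant genes share similar sequence, and multi-mapping reads were removed, so their levels are uncertain. The members and gene lists were chosen with earlier results of these data known. The genes named are the 12 largest changes in each direction (average count at least 50, groups not overlapping), up to 6 called members per list (or, with fewer than 2 called, its 2 members of highest average count), clock genes and Nppa, Nppb, Nmrk2, Nampt, Cd38 and Sirt1, the 4 largest differences between the times and from old H2O hearts in each direction; others are said to be chosen after their values were seen. Some genes that meet the rule are not reported here. Alternatives were DESeq2 1.42.0, its size factors, no filter, filterByExpr, only the groups compared, thinned counts, the replicate block, leaving out each heart and, added after seeing the data, summing old NR replicates 1 and 3. The fits were tested on simulated data.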

Additional observations from a re-analysis of the deposited data

Results flagged for a closer look

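For 924 genes the old NR against young change differed between ZT10 and ZT22 by edgeR's test of that difference. Those named for it were Gm19277 (-2.21), Lmntd1 (-2.17), Pla2g4e (-2.10), Hs3st5 (-1.99), Atf3 (2.90), Sdf2l1 (2.87), Rtn4r (2.41) and Angptl4 (2.17), as the log2 change at ZT10 minus that at ZT22. Angptl4 (adjusted p = 0.05) was called in 3 of the 12 edgeR fits that leave out 1 heart, Lmntd1 in 6 and Atf3 in 11, and the other 5 in all 12. Groups of 3 hearts are too small for a test of single outlying hearts.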

How the results depend on the processing

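The number of genes called in old NR against young hearts at ZT10 (659) became 1036 when only the groups compared were fitted and 412 with old NR replicates 1 and 3 summed, and lay between 287 and 490 when 1 heart was left out. For the same contrast at ZT22 (2189) it became 1214 with only the groups compared and 794 with DESeq2 on them, and lay between 1301 and 2137 with 1 heart left out, lowest without old NR replicate 2 of ZT22. The 924 differences between the times lay between 587 (without young ZT10 replicate 3) and 1068. The 44 calls between the old groups at ZT10 became 234 with only the groups compared, 121 with DESeq2 on them, 0 with old NR replicates 1 and 3 summed and 0 to 22 with 1 heart left out. Old H2O against young hearts (906) gave 1479 with only the groups compared and 478 to 614 with 1 heart left out. The cause of these shifts was not tested, except that a fit with a heart left out has fewer samples. Over 4 pairs of groups, hearts with the same replicate number correlated by -0.0202 to 0.074 in their deviations from the group means and those with different numbers by -0.0783 to 0.053. Old NR and young hearts at ZT10 each correlated best with their own number (0.0194 to 0.0307, against -0.0401 to 0.0166), a hint from the data only. As no correlation passed 0.1, the numbers were not taken to pair the hearts, and a replicate block gave 762 calls for old NR against young at ZT10 and 70 between the old groups.

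Of the 66 genes named that were called in old NR against young hearts at ZT10, 64 were called by DESeq2 on all hearts, 56 by DESeq2 on the groups compared, 58 after thinning, 57 with replicates 1 and 3 summed and 66 with DESeq2 size factors, with only the groups compared or with the block. Without 1 heart 43 to 50 were called. Without old NR replicate 1, the calls of Alas2, C1ra, Ccn4, Chac1, Cirbp, Creld2, Cx3cr1, Hspa4l, Igkc, Lama5, Lmntd1, Mfap4, Nppb, Plekha7, Shisa6, Tmem35a, Tnfrsf10b and Uspl1 were lost. Without old NR replicate 2, the calls of Alas2, Bbc3, C1ra, Ccn4, Cd38, Cirbp, Creld2, Cx3cr1, Edn3, Ifi44, Ifit1, Lmntd1, Maff, Mmp3, Plekha7, Shisa6, Tnfrsf10b and Uspl1 were lost. Without old NR replicate 3, the calls of Bbc3, C1ra, Ccn4, Cd38, Chac1, Cirbp, Creld2, Cx3cr1, Hspa4l, Igkc, Lama5, Lmntd1, Mfap4, Mmp3, Nppb, P4ha1, Plekha7, Rbm3, Sbk3, Scd2, Shisa6, Tmem35a and Tnfrsf10b were lost. Without young replicate 1, the calls of Arc, C1ra, Ccn4, Cd38, Cirbp, Cx3cr1, Ifi44, Ifit1, Igkc, Lmntd1, Plekha7, Sbk3, Scd2, Shisa6, Tnfrsf10b and Uspl1 were lost. Without young replicate 2, the calls of Alas2, Bbc3, C1ra, C1s1, Chac1, Cirbp, Creld2, Cx3cr1, Edn3, Hspa4l, Hsph1, Ifi44, Ifit1, Igkc, Lama5, Manf, Mfap4, Mmp3, Nppb, Rbm3, Shisa6 and Tnfrsf10b were lost. Without young replicate 3, the calls of Alas2, Arc, Bbc3, C1ra, C1s1, Cd38, Chac1, Cirbp, Cx3cr1, Edn3, Hspa4l, Ifi44, Lama5, Lmntd1, Mfap4, Mmp3, Nppb, P4ha1, Scd2, Srrm4, Tnfrsf10b and Uspl1 were lost. The log2 change of Nmrk2 turned positive after thinning (0.065), without old NR replicate 1 (0.036) and without old NR replicate 3 (0.013), and ranged from -0.170 to 0.036 with 1 heart left out. That of Atf3 turned negative without old NR replicate 2 and ranged from -0.028 to 0.584. Neither gene was called. ER genes called higher fell from 4 to 2 without young replicate 2, complement genes from 3 to 1 without young replicate 2 or 3 and with DESeq2 on the groups compared, and clock genes called lower went from 2 to 4 with only the groups compared. Depth limits the genes of low count, and 4369 of those tested had an average count between 5 and 50.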
